A study of Homo sapiens with 38 samples.

Results

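The comparison described here set IMR90 cells made senescent by ras against growing IMR90 cells in the second of the study's experiments. IMR90 is a human diploid lung fibroblast line. The groups were chosen by the sample descriptions: 2 arrays of senescent cells and 2 arrays of growing cells, both carrying an empty vector control, or 4 of the 38 arrays in the series. Both groups are recorded with 10% fetal bovine serum, and the senescent cells had entered senescence after ras, per the labels. The labels do not name the ras gene or allele, the construct that carried it, or the days since its introduction, and all 4 arrays carry the vector. The study as a whole asked what loss of RB, p107 or p130 does to growing, quiescent and senescent cells. Experiment 2 also holds 2 arrays of senescent cells with a hairpin against RB, which served here only for the estimate of spread. Experiment 1 holds 32 arrays, among them 2 of growing and 2 of senescent vector cells, and served as a separate comparison. No array is shared, but the arrays of experiment 1 also set which genes were tested.

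Oncogene-induced senescence is a lasting arrest that normal cells enter when a growth-promoting oncogene such as ras stays active. Cyclin-dependent kinase inhibitors hold the RB family in its active form, RB-family complexes with E2F factors keep S-phase and mitotic genes off, and the nuclear lamina and chromatin are rebuilt. Senescent fibroblasts are also known for a secretory state, in which NF-kB and C/EBP factors drive interleukins, chemokines, proteases and growth factors into the medium.

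All values are log2 expression values as deposited, 1 per probe set, and a change is the senescent mean minus the growing mean, so that a change of 1 is 2-fold. A gene was called when limma's adjusted p (Benjamini-Hochberg over the 8511 genes tested) was under 0.05. The median value lay between 3.27 and 3.41 on all 38 arrays, and 21.57% to 24.19% of probe sets exceeded 5, the level used here as the edge of the measurable range. A fold that reaches below 5 is given as "at least", with every value under 5 set to 5. All 11 fibroblast markers were above 5 on both growing arrays and 10 on both senescent arrays. Of 10 epithelial markers, KRT18 alone exceeded 5, and of 9 endothelial markers TEK and CLDN5 did, of which 1 was called higher and 1 lower. All 7 blood cell markers with a probe set stayed at or below 3.57.

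The 2 senescent vector arrays were closer to each other than any other replicates in the series. The standard deviation of their difference over the genes tested was 0.177, against 0.415 for the growing arrays and 0.297 to 0.794 for the other 18 groups. The labels do not say whether replicates are separate cultures, so the p-values reflect nothing beyond array-to-array spread, which may be technical. Counts are therefore also given with the senescent arrays averaged and counted as 1 sample.

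Senescence went with a change in a large share of the expressed genes. Of 8511 genes tested, 3339 (39.2%) were called, 1588 higher (18.7%) and 1751 lower (20.6%) in senescent cells. At least 2-fold changes made up 712 of the rises (8.37%) and 1052 of the falls (12.4%), and 56 genes rose (0.658%) and 40 fell (0.470%) at least 16-fold. Without senescent replicate 1 the count was 1822, without senescent replicate 2 it was 1854, and with both averaged to 1 sample it was 1827, all of them among the 3339. Of the 1764 called genes with a 2-fold change, 1576 were called again in each fit that left out a vector array or averaged the senescent arrays. The median change over all genes tested was 0.01. The shares of 18.7% higher and 20.6% lower are the background for every list count below.

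The largest rises were in secreted inflammatory factors. CCL20, a chemokine for lymphocytes and dendritic cells, was at 1.98 and 2.27 on the growing arrays and 10.65 and 10.48 on the senescent ones, a change of 8.44 ± 0.18 (SE, adjusted p = 1.1e-07) and at least 47.4-fold. IL1B, the secreted form of interleukin-1 that needs caspase cleavage, went from 5.05 and 4.25 to 13.25 and 13.17, at least 291-fold. TNFSF15, a ligand of the TNF family, went from 3.69 and 3.25 to 11.78 and 11.79, a change of 8.32 ± 0.20 before values under 5 are set to 5 and of 6.79 after. The plot of the largest changes, which took only genes without overlap, shows every growing array far below every senescent array for these genes. IL1A, the membrane-bound interleukin-1, was at 3.08 and 3.05 in growing and 10.93 and 10.46 in senescent cells, at least 51.9-fold. Outside the secreted factors, the epithelial ETS factor EHF rose from 2.56 and 2.65 to 10.18 and 10.08, and the apoptosis inhibitor BCL2A1 rose from 3.17 and 2.80 to 9.86 and 9.85. GABRA2, a GABA-A receptor subunit, LCE3D, a cornified envelope protein, and THBD, the thrombin receptor thrombomodulin, also rose, at least 43.5-fold, 24.9-fold and 14.8-fold. SLC6A15, an amino acid transporter, went from 5.68 and 5.53 to 11.59 and 11.41 with all its values above 5.

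The largest falls were in matrix, growth factor and mitotic genes, among others. COL15A1, a basement membrane collagen, was at 9.04 and 9.36 in growing and 3.19 and 3.41 in senescent cells (change -5.90 ± 0.19, at least 18.4-fold). PTN, the heparin-binding growth factor pleiotrophin, fell from 10.46 and 10.16 to 4.30 and 4.60, at least 39.6-fold. EFEMP1, the matrix protein fibulin-3, kept values above 5 throughout and fell from 10.36 and 10.06 to 5.31 and 5.27, or 30.4-fold. NREP, a neuronal regeneration-related protein, fell from 11.32 and 11.15 to 6.47 and 6.75. The imprinted gene MEST fell at least 25.9-fold and the prostaglandin E2 receptor PTGER2 at least 24.6-fold. These genes were taken only from called genes whose growing and senescent arrays did not overlap. No overlap was seen for 72.6% of all genes tested.

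**Figure D1:**
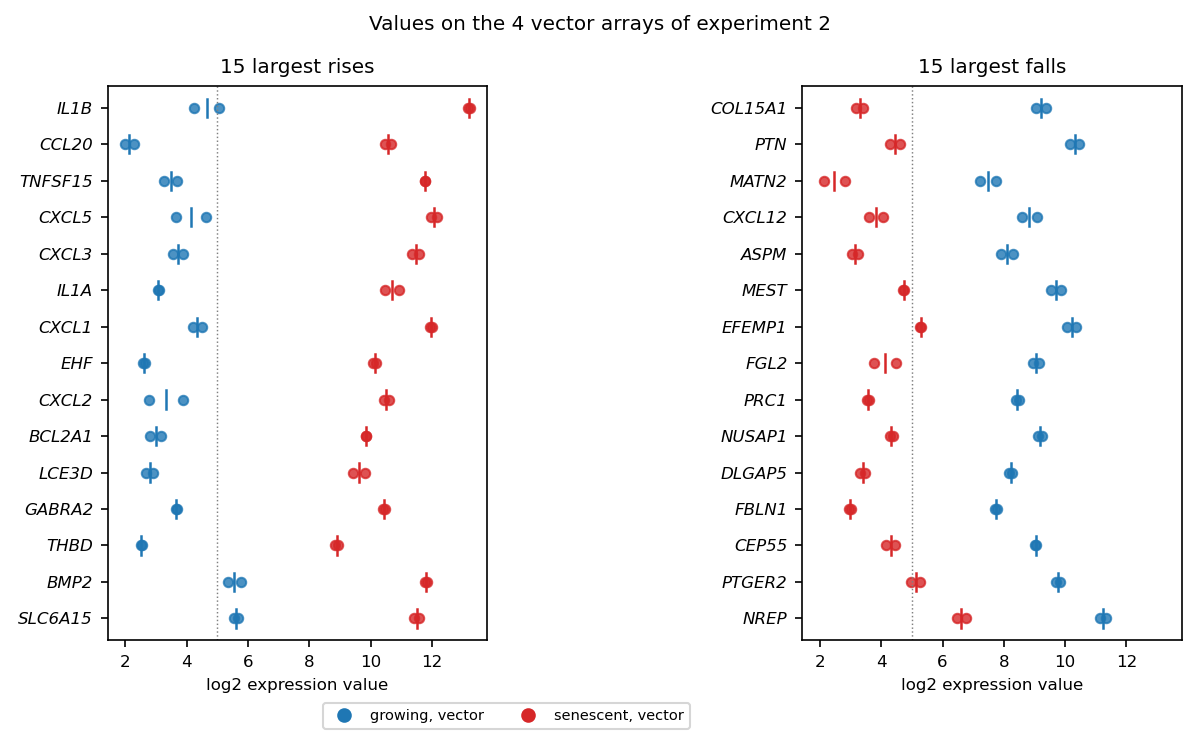
Log2 expression values (x axis) of the 15 genes with the largest rises and the 15 with the largest falls, blue for the 2 growing and red for the 2 senescent vector arrays of experiment 2, bars for the group means and a dotted line at 5. In the left panel 13 genes have at least 1 growing value under 5, and in the right panel 13 have at least 1 senescent value under 5.

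HRAS itself was at 8.08 and 7.56 on the growing arrays and 8.84 and 8.87 on the senescent ones, a rise of 1.04 ± 0.21 (adjusted p = 0.00537). In experiment 1 its change was 0.16 and was not called, and the difference between the experiments was not called (0.87, adjusted p = 0.347). Whether the probe set also reads an introduced ras was not tested. RASD1, a ras-related GTPase, rose from 4.99 and 4.90 to 7.30 and 7.06, and RRAS2, a close relative of the classical ras proteins, fell from 9.94 and 10.16 to 8.88 and 8.70. Of 10 RAS genes and GTPase regulators tested, 2 rose and 2 fell, with a median change of 0.01, shares near the 18.7% and 20.6% of all genes. The number that fell was 1 with the senescent arrays averaged or without senescent replicate 2, 1 without growing replicate 2, and 4 without growing replicate 1.

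Genes that ERK signalling switches on, many of which dampen it in turn, were higher in senescent cells in 10 of 22 cases and lower in 3. These shares were 45.5% and 13.6%, against 18.7% and 20.6% of all genes, and the median change was 0.46. DUSP4, a nuclear MAP kinase phosphatase, went from 3.87 and 3.96 to 9.36 and 9.49 (5.51 ± 0.23, at least 21.5-fold). SPRY2, a feedback inhibitor of receptor signalling upstream of ras, rose from 8.28 and 8.52 to 10.66 and 10.61, or 4.71-fold. DUSP5, which removes phosphate from ERK in the nucleus, rose by 2.17 and the pseudokinase TRIB1 by 2.36. FOSL1, an AP-1 subunit, fell from 6.98 and 6.94 to 6.20 and 6.21, and the MAP kinase phosphatase DUSP10 fell from 8.48 and 8.82 to 7.88 and 8.10. Both lost the call with the senescent arrays averaged, where 1 of the list was lower, as without senescent replicate 2, and 0 were lower without senescent replicate 1. Among 16 immediate early factors, 7 rose (43.8%, against 18.7% of all genes) and 3 fell (18.8%, near the 20.6% of all genes). MYC rose from 8.23 and 8.44 to 9.85 and 9.86 and EGR3, a zinc finger factor induced by growth signals, from 5.51 and 5.75 to 7.01 and 6.74. KLF4, a Krüppel-like factor, fell from 6.65 and 6.76 to 4.97 and 4.88, and was the 1 factor that still fell with the senescent arrays averaged or with either left out.

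Cyclin-dependent kinase inhibitors changed in both directions. CDKN1A, which encodes p21 and is induced by p53, was at 10.64 and 10.61 in growing and 12.56 and 12.53 in senescent cells, a rise of 1.92 ± 0.16 or 3.79-fold. CDKN2B, encoding the CDK4 and CDK6 inhibitor p15, rose from 6.22 and 5.59 to 9.95 and 9.58, or 14.5-fold. CDKN2A, whose probe set names the gene for p16 and ARF without telling them apart here, rose from 8.03 and 7.67 to 8.93 and 9.15. CDKN1B, encoding p27, fell from 9.14 and 8.69 to 6.84 and 6.59, or 4.59-fold. CDKN1C was dim in both states, at 4.45 and 4.02 against 3.63 and 3.58, and lost its call without growing replicate 1 and without either senescent array. Thus 3 of 5 inhibitors rose and 2 fell, or 3 and 1 in those fits.

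Of 9 pocket protein and E2F family genes tested, 1 rose and 4 fell. E2F7, an E2F that represses, rose from 8.31 and 8.74 to 10.37 and 10.19, or 3.37-fold. RBL1, which encodes p107, went from 4.85 and 5.2 to 2.53 and 2.52, values at the edge of the measurable range, and its call was lost once values under 5 were set to 5. RB1 was at 9.64 and 10.00 in growing and 9.21 and 9.07 in senescent cells, a change of -0.68 that lost its call without either senescent array and without growing replicate 2. RBL2, which encodes p130, E2F3, E2F5 and E2F6 were not called, with changes of -0.38, 0.35, 0.03 and 0.30. The count that fell was 1 without senescent replicate 1 and 2 without senescent replicate 2.

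Among the G1 cyclins and their kinases, 3 of 8 rose and 3 fell (37.5% each, against 18.7% and 20.6% of all genes). With values under 5 set to 5, 2 of 7 rose and 2 fell. CCNE1, under 5 throughout, was not tested on that scale. CCNE2 changed by -0.10 there and was not called, against -1.81 before. CCND2, a D-type cyclin, rose from 4.45 and 5.0 to 8.54 and 8.50, at least 11.5-fold. CDK2, the partner of cyclins E and A, fell from 8.55 and 8.60 to 7.20 and 7.22, and CDK6, a partner of D-type cyclins, fell from 9.70 and 9.99 to 8.79 and 8.74. Another probe set of CDK6 above 5 was not called. CCND1 went from 11.03 and 11.49 to 11.93 and 11.96 and CCNE1 from 3.47 and 3.77 to 4.47 and 4.43, and neither kept its call with the senescent arrays averaged or with either left out, which left 1 gene that rose. CCND3 (change -0.02) and CDK4 (-0.55) were not called, and CDK4 was called without growing replicate 2.

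**Figure D2:**
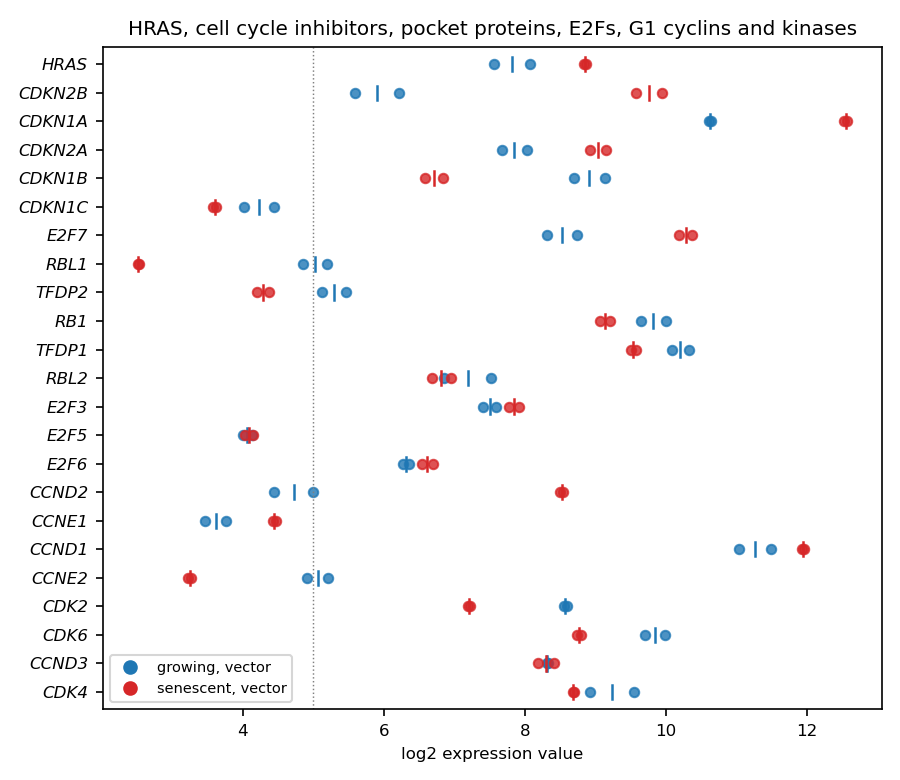
Log2 expression values (x axis) of HRAS and of all tested cell cycle inhibitors, pocket proteins, E2F family members, G1 cyclins and their kinases, blue for the 2 growing and red for the 2 senescent vector arrays of experiment 2, with bars for group means. CDKN2B, CDKN1A, E2F7 and CCND2 lie higher in senescent cells, CDKN1B, CDK2 and CDK6 lower.

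The replication and mitotic programmes fell together. Of 47 DNA replication genes tested, 39 fell and 0 rose, 32 of them at least 2-fold, with a median change of -1.90 against 0.01 over all genes. With the senescent arrays averaged, 33 fell. With values under 5 set to 5, 32 of 46 fell and the median was -0.95. RRM2, a subunit of ribonucleotide reductase, fell from 10.37 and 10.67 to 7.61 and 7.18, or 8.73-fold. TYMS, which makes thymidylate, fell from 10.44 and 10.28 to 7.27 and 7.16, and GMNN, the licensing inhibitor geminin, from 9.14 and 8.95 to 5.86 and 5.83. GINS2, a subunit of the replicative helicase complex, fell from 7.22 and 6.72 to 3.69 and 3.40, at least 3.91-fold.

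All 55 mitosis genes tested fell, each at least 2-fold, with a median change of -3.59 and a range from -4.97 to -1.01. With values under 5 set to 5 the median was -2.19. All 55 were also called with the senescent arrays averaged, 54 without senescent replicate 2, and 51 when values under 5 were set to 5. ASPM, a spindle pole protein, fell from 7.92 and 8.31 to 3.24 and 3.05, and PRC1, which bundles spindle midzone microtubules, from 8.38 and 8.51 to 3.61 and 3.55. NUSAP1, a spindle microtubule protein, fell from 9.24 and 9.11 to 4.37 and 4.29, at least 18.1-fold. Across the 55 genes the mean level was 7.56 and 7.60 on the growing arrays and 4.26 and 4.15 on the senescent ones. The list held 13 further genes with a probe set that did not pass the filter, and none of these exceeded 6.19 in experiment 2. Fewer cells in cycle and less RNA per cell cannot be told apart in bulk RNA.

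Promoter windows from RefSeq (GRCh38.p14, 250 bases before to 50 after the start) were searched on both strands for elements linked to these programmes. They were at hand for 7123 of the 8511 genes. The E2F element was taken as TTTGGCGC, TTTCCCGC, TTTGCCGC or TTTCGCGC. It occurred in 16 of 41 DNA replication windows (39.0%) and 3 of 46 mitosis windows (6.52%), against 5.52% of all. The cell cycle homology region (CHR), taken as TTTGAA or TTTAAA, occurred in 38 of 46 mitosis windows (82.6%) and 4 of 41 replication windows (9.76%), against 16.1% of all. CCAAT boxes were found in 71.7% of mitosis, 56.1% of replication and 37.1% of all windows. A match describes letters in a window and shows no binding. The 250 bases before the start are given for the member of each list with the largest fitted fall. With values under 5 set to 5 others fell further, GMNN 9.18-fold against 3.91-fold for GINS2 and NUSAP1 18.1-fold against 8.66-fold for ASPM. In GINS2 (chr16:85688955-85689204, minus strand), capitals mark the E2F element, 31 to 24 bases before the start. In ASPM (chr1:197146670-197146919, minus strand), capitals mark 2 CHR matches and 4 CCAAT boxes, the latter read as ATTGG, with the nearest CHR match ending 2 bases before the start.

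GINS2: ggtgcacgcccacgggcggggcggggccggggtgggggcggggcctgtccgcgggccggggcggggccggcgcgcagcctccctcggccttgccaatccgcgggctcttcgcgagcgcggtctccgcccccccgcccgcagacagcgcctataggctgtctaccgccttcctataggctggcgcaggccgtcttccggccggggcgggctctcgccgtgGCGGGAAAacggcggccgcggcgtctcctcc

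ASPM: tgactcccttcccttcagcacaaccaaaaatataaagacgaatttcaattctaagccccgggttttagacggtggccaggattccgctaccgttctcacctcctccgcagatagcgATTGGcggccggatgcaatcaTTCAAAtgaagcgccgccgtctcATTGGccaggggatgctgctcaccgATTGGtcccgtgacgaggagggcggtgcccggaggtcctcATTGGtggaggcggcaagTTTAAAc

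Repair and chromatin genes that cycling cells need fell as well. Of 11 homologous recombination and Fanconi anaemia genes, 10 fell, all at least 2-fold and all also with the senescent arrays averaged. Their median of -2.78 was -1.29 with values under 5 set to 5. FANCI, a Fanconi pathway protein, fell from 8.49 and 8.99 to 5.89 and 5.74, or 7.58-fold. Of 24 lamina and chromatin genes, 17 fell and 1 rose, with a median change of -1.02, and 12 fell with the senescent arrays averaged. LMNB1, encoding lamin B1 of the nuclear lamina, fell from 7.74 and 8.02 to 3.77 and 3.61, at least 7.36-fold. HMGB2, a chromatin protein that bends DNA, fell from 10.51 and 10.34 to 6.85 and 6.65, or 12.8-fold. The lamina-associated protein gene TMPO fell by 2.72. The linker histone gene H1-2 was at 5.93 and 5.26 against 6.40 and 6.82 and lost its call without either senescent array or growing replicate 2.

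Genes of the p53 response were called higher in 7 of 24 cases and lower in 0, or 6 and 0 with the senescent arrays averaged, with a median of 0.35. The shares were 29.2% higher and 0% lower, against 18.7% and 20.6% of all genes, and 17 of the 24 were not called. TNFRSF10B, a death receptor for TRAIL, rose from 9.88 and 10.45 to 11.66 and 11.71, or 2.85-fold. RRM2B, the p53-induced ribonucleotide reductase subunit, rose from 8.41 and 8.89 to 10.09 and 9.85, while RRM2 fell as given above. PLK3, a stress-responsive polo-like kinase, rose from 4.69 and 4.77 to 6.61 and 6.63.

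Chemokines had a median change of 4.72 over the 12 tested. Without the filter on low values the median was 0.57 over 20 chemokines, beside 0.58 for the EGF family, so its rank among the lists depends on that filter. Of the 12, 8 rose, 1 fell and 3 were not called, the same counts as with the senescent arrays averaged. The neutrophil-attracting CXCL5 was at 4.62 and 3.65 in growing and 12.18 and 11.97 in senescent cells, at least 135-fold. CXCL1 went from 4.51 and 4.19 to 11.95 and 11.99, CXCL2 from 3.87 and 2.78 to 10.44 and 10.59, and CXCL3 from 3.89 and 3.56 to 11.36 and 11.58. The senescent values of CXCL5 and these genes, all on chromosome 4, ran from 10.44 to 12.18. Whether they are regulated together was not tested. Members of this family resemble each other in sequence, and the probe sets were taken as annotated. CXCL12, which binds CXCR4 and retains blood progenitors in tissue, moved the other way, from 9.07 and 8.60 to 4.04 and 3.60, at least 14.3-fold lower. The NF-kB consensus occurred in 7 of 10 chemokine promoter windows (70.0%), against 12.7% of all windows, and the AP-1 element TGANTCA in 2 of 10 (20.0%), against 4.41%. The 250 bases before the start of CCL20 (chr2:227813592-227813841, plus strand), the chemokine with the largest fitted change, are shown with its NF-kB match in capitals, 79 to 70 bases before the start. CXCL5 and CXCL3 had larger bounds than CCL20, at 135-fold and 88.6-fold against 47.4-fold.

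CCL20: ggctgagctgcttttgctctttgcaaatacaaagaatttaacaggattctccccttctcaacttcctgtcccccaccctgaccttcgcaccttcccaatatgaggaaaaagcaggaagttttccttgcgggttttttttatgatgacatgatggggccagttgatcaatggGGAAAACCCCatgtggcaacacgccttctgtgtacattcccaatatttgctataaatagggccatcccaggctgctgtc

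Interleukins, TNF-family ligands and colony-stimulating factors rose in 9 of 14 cases (64.3%) and fell in 3 (21.4%), against 18.7% and 20.6% of all genes. Their median change was 1.86. Without the filter on low values, 9 of 21 rose and 3 fell, and the median was 0.39. With values under 5 set to 5, 7 of 13 rose and 3 fell. The size of the rise thus depends on the filter. IL6, a main inflammatory cytokine of senescent fibroblasts, rose from 6.26 and 5.50 to 11.30 and 11.56, or 46.8-fold. TNFSF4, a costimulatory ligand of T cells, fell from 7.32 and 7.81 to 3.71 and 3.49, and IL15, a growth factor of natural killer and T cells, from 6.04 and 5.57 to 3.43 and 3.50. Of 21 cytokine receptors, 6 rose (28.6%) and 3 fell (14.3%), against 18.7% and 20.6% of all genes. Fewer of them were called with 1 senescent array left out or with both averaged. IL13RA2, a decoy receptor for interleukin-13, rose from 6.72 and 6.27 to 10.40 and 10.42, or 15.1-fold.

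The NF-kB and C/EBP pathway rose in 10 of 19 genes and fell in 2, or 9 and 2 with the senescent arrays averaged. ICAM1, an adhesion receptor for leukocytes, rose from 4.21 and 4.37 to 9.58 and 9.05, at least 19.9-fold. Genes for feedback inhibitors of NF-kB were among the rises. TNFAIP3, the ubiquitin-editing enzyme A20, went from 4.87 and 5.02 to 8.36 and 8.74, and NFKBIA from 8.01 and 7.51 to 9.53 and 9.37. NFKBIZ, another member of the list, rose from 8.64 and 8.85 to 11.77 and 11.81. VCAM1, another adhesion receptor, fell from 5.54 and 5.42 to 2.51 and 2.57.

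Proteases and inhibitors both moved in 2 directions. Several matrix proteases and the inhibitor SERPINB7 (change 3.64) rose, while the inhibitor TIMP3 and the protease ADAMTS1 (change -1.77) fell. In the list of metalloproteinases, the plasminogen system and their inhibitors, 14 of 23 rose and 5 fell, or 11 and 3 with the senescent arrays averaged or without senescent replicate 2, and 9 and 3 without senescent replicate 1. MMP3, stromelysin-1, rose from 8.55 and 7.61 to 12.65 and 12.59, or 23.3-fold, and MMP10, stromelysin-2, from 6.09 and 5.24 to 10.20 and 10.31, or 24.1-fold. TIMP3, an inhibitor bound to the matrix, fell from 10.88 and 11.05 to 9.03 and 9.23. TIMP2 was at 11.94 and 12.21 against 11.49 and 11.43, and this small change of -0.61 turned to 0.23 when its probe sets were averaged. Its other probe sets above 5 went both ways, with changes of -0.56 and 1.85.

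Secreted growth factors split between rises and falls. Of 5 EGF-family ligands and receptors, 4 rose and 1 fell, or 3 and 0 without senescent replicate 1 or with the senescent arrays averaged. Among the ligands, EREG (epiregulin) rose from 6.18 and 5.23 to 10.87 and 10.33, NRG1 (neuregulin-1) from 5.06 and 5.25 to 9.43 and 9.34, and HBEGF from 6.02 and 6.10 to 7.18 and 7.06. Of 20 other growth factors and hormones, 7 rose and 10 fell, each at least 2-fold, and the counts were the same with the senescent arrays averaged. GDF15, a stress-induced TGF-beta relative, rose from 7.69 and 6.81 to 12.69 and 12.50, or 40.6-fold. STC1, the glycoprotein hormone stanniocalcin-1, rose from 10.24 and 10.39 to 12.65 and 12.72, and ESM1, an endothelial proteoglycan, from 4.13 and 4.19 to 8.81 and 8.70. GAS6, the ligand of TAM receptors, fell from 10.43 and 11.23 to 8.04 and 8.39. In the IGF system, IGFBP3, a carrier of insulin-like growth factors, fell from 11.76 and 11.84 to 9.57 and 9.33, or 5.10-fold. In that list 1 of 10 members rose (10%) and 3 fell (30%), against 18.7% and 20.6% of all genes.

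In the TGF-beta, BMP and ID list, 14 of the 24 tested were lower and 4 higher in senescent cells, and the median change was -1.10. BMP2 was the exception in size, with 5.76 and 5.35 in growing and 11.84 and 11.78 in senescent cells, a 76.5-fold rise. ID2 and ID3, dominant-negative helix-loop-helix proteins that BMP signals induce, fell from 10.96 and 10.22 to 7.02 and 6.84 and from 11.07 and 10.56 to 8.49 and 8.36. FST, the activin antagonist follistatin, fell from 11.18 and 10.98 to 8.06 and 8.62. Of 13 WNT pathway genes, 8 fell and 0 rose, or 6 and 0 with the senescent arrays averaged. The WNT receptors FZD2 and FZD7 fell from 9.11 and 9.47 to 5.52 and 5.60 and from 11.42 and 11.52 to 8.15 and 7.96. DKK1, a secreted WNT antagonist, fell by 2.85.

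Matrix and contractile genes, which mark the fibroblast itself, were lower. Of 21 collagens, 16 fell and 1 rose, with a median of -1.23. COL3A1, a fibrillar collagen, fell from 13.17 and 13.14 to 8.89 and 9.05, or 18.2-fold, and COL5A2 from 11.96 and 11.98 to 9.75 and 9.63. COL10A1, the collagen of hypertrophic cartilage, rose from 2.51 and 2.84 to 7.90 and 7.32, at least 6.12-fold. Of 34 other matrix proteins and crosslinkers, 23 fell and 3 rose, and none of the 3 rises remained with the senescent arrays averaged, where 19 fell. DCN, the small proteoglycan decorin, fell from 12.44 and 12.40 to 8.60 and 9.14, or 11.7-fold. Contractile and myofibroblast genes fell in 17 of 25 cases and rose in 1, or 12 and 1 with the senescent arrays averaged. ACTG2, a smooth muscle actin, fell from 12.27 and 12.13 to 8.95 and 9.07, and MYH10, non-muscle myosin IIB, from 10.32 and 10.77 to 7.29 and 7.21, or 9.79-fold. SMTN, the actin-binding smoothelin, rose from 6.59 and 6.86 to 8.08 and 7.97. Of 12 integrins, 3 fell (25%), near the 20.6% of all genes, and 0 rose, against 18.7% of all genes. Among the falls was ITGA4, which pairs with beta-1 to bind VCAM1, from 6.64 and 7.20 to 4.06 and 3.90. Across the 11 fibroblast markers, 9 fell and 0 rose, and their mean level was 11.53 and 11.58 in growing and 9.90 and 10.03 in senescent cells.

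Lipid mediators and lysosomal genes moved in part. PTGS2, the inducible cyclooxygenase of prostaglandin synthesis, was at 6.28 on both growing arrays and at 11.68 and 11.69 on the senescent ones, a rise of 5.4 ± 0.17 (SE). PTGS1, the constitutive cyclooxygenase, fell from 10.47 and 10.37 to 7.84 and 8.06. Of 10 prostaglandin genes 2 rose (20%) and 4 fell (40%), against 18.7% and 20.6% of all genes. Fewer falls were called without senescent replicate 1 or with the senescent arrays averaged. Of 26 lysosome and autophagy genes 13 rose and 2 fell, or 8 and 2 without either senescent array or with both averaged. MCOLN1, a lysosomal calcium channel, rose from 5.80 and 5.66 to 7.42 and 7.12. NPC1, which exports cholesterol from lysosomes, rose from 8.26 and 8.96 to 10.01 and 10.10. Sterol and fatty acid synthesis genes rose in 9 of 23 cases and fell in 1, among them IDI1, an enzyme of isoprenoid synthesis, from 7.43 and 7.58 to 9.26 and 9.16. The 1 fall in that list was not called without any 1 of growing replicate 1, senescent replicate 1 or senescent replicate 2, whereas 3 fell without growing replicate 2.

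**Figure D3:**
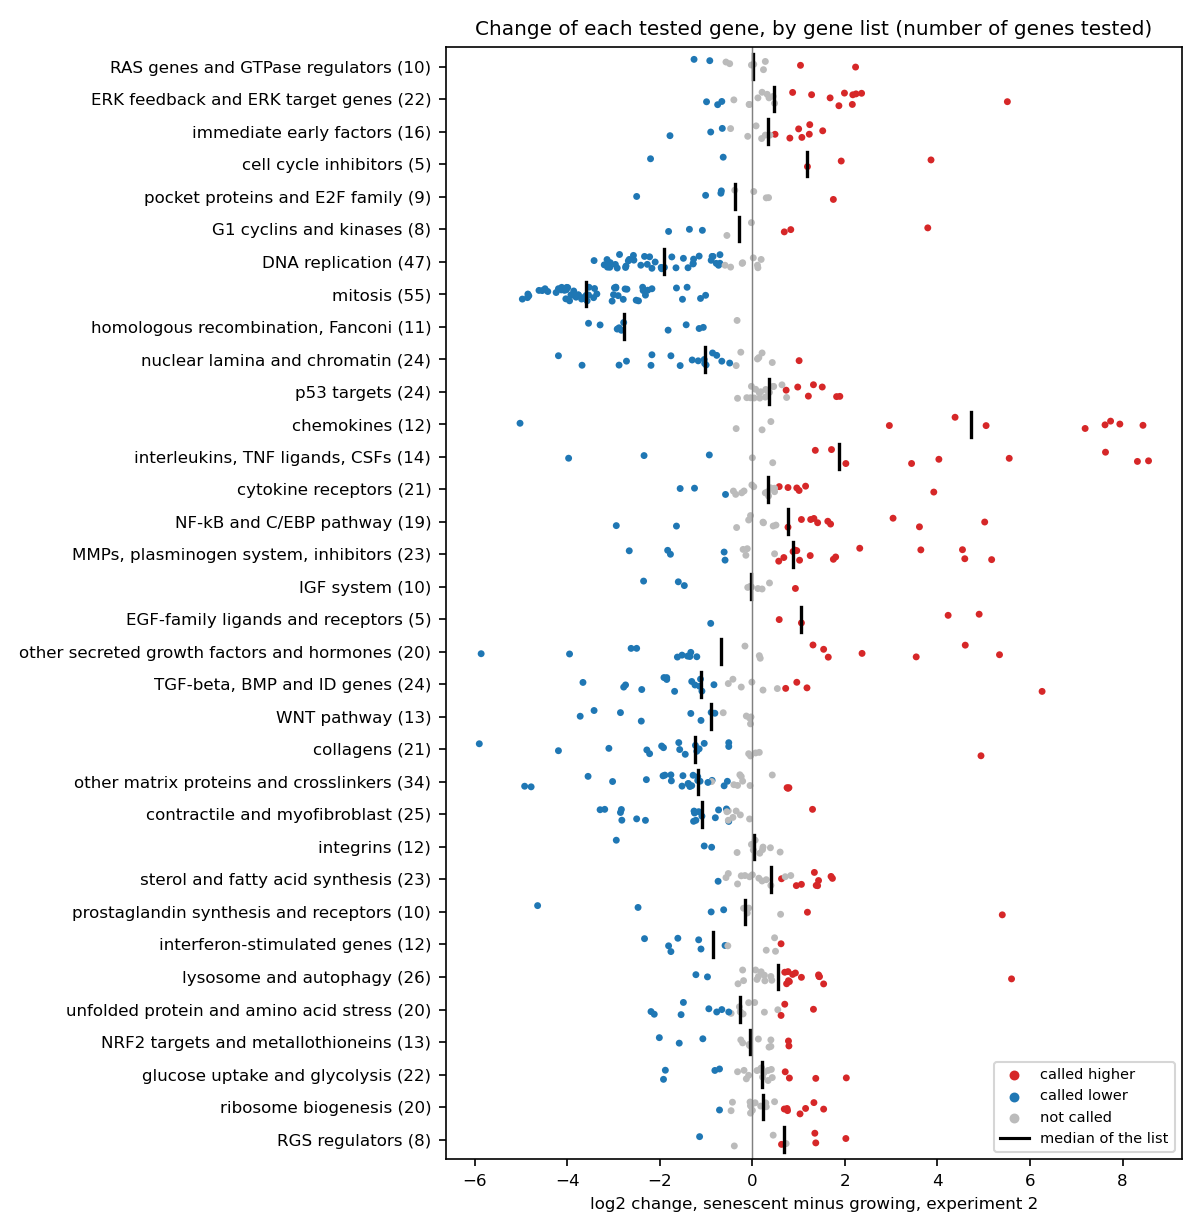
Log2 change (x axis, senescent minus growing, experiment 2) of every tested gene in 34 gene lists, 1 point per gene, red where called higher, blue where called lower, grey where not called, with the list median as a black bar and the number tested in brackets. The mitosis points all lie below 0, and the chemokine median is 4.72 over the members tested, against 0.57 without the filter on low values.

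The same comparison in experiment 1 gave 2166 called genes (25.4%), 784 higher (9.21%) and 1382 lower (16.2%), or 1337 without growing replicate 2 and 1420 without senescent replicate 1 of that experiment. Of the genes higher in experiment 2, 611 were also higher in experiment 1, which is 38.5% of the former and 77.9% of the latter. Of those lower, 980 were lower in both, or 56.0% and 70.9%. Opposite calls were made for 5 genes that rose in experiment 2 and 4 that fell. Among the 3339 called genes, 3059 had the same sign of change in experiment 1 (91.6%), and the changes correlated at r = 0.824 across the 8511 genes, which are not independent replicates. The plot of both experiments shows this as a band along the diagonal. By list, mitosis fell in 50 of 55 genes in experiment 1 and DNA replication in 27 of 47, with medians of -2.81 and -1.0. Chemokines rose in 7 of 12 with a median of 3.70. Genes entered through values above 5 on arrays of experiment 1, the senescent ones among them, so this rise is not independent of the filter.

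**Figure D4:**
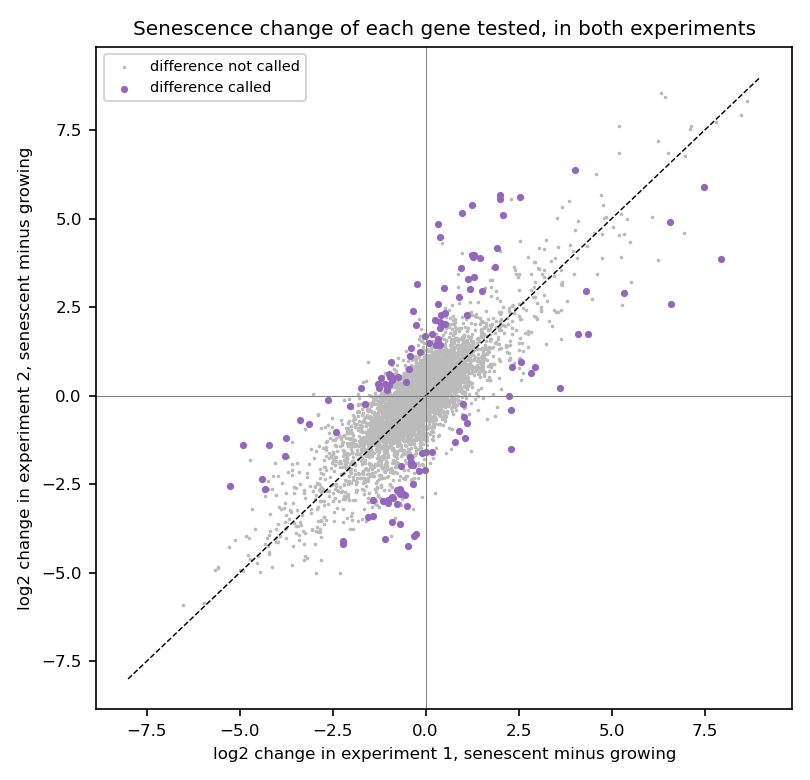
Log2 change in experiment 1 (x axis) against that in experiment 2 (y axis) for each of the 8511 genes tested, with the dashed line of equal change and, in purple, the 128 genes whose change differed between the experiments. The points lie along the line (r = 0.824 across genes), and 35 of the purple genes have changes of opposite sign.

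The difference itself was called for 128 genes (1.5%), 72 with the more positive change in experiment 2 (0.846%) and 56 with the more negative (0.658%), and 1120 had an unadjusted p under 0.05. With quantile normalization the split was 56 positive and 71 negative. With the senescent arrays of experiment 2 averaged, 47 remained, and leaving out a vector array gave between 44 (without experiment 2 senescent replicate 1) and 88 (without experiment 1 growing replicate 2). For 91 of the 128 the growing levels lay further apart between the experiments than the senescent levels, and for 37 the reverse held. At least 1 of the 8 vector arrays was under 5 for 82 of the 128, and 73 of the 128 were called again with values under 5 set to 5. In 14 of them, all with the more positive change in experiment 2, the experiment 2 growing mean was under 2.5, whereas the experiment 1 growing mean was under 2.5 in 0. Values under 2 made up 0.304% to 0.417% of probe sets on the 8 arrays.

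Among genes bright on all 8 arrays, POSTN, the matrix protein periostin, turned direction. It fell from 11.60 and 11.39 to 10.15 and 9.84 in experiment 2 and rose from 9.36 and 9.21 to 11.38 and 11.80 in experiment 1 (difference -3.80, SE 0.50, adjusted p = 8.53e-05). LRRN3, a neuronal leucine-rich repeat protein, fell from 8.40 and 8.04 to 7.06 and 6.62 in experiment 2 and from 11.16 and 10.62 to 6.34 and 5.62 in experiment 1. NFKBIZ was already high in growing cells of experiment 1, at 11.06 and 10.22, against 8.64 and 8.85 in experiment 2, and its senescent values were 11.27 and 10.99 against 11.77 and 11.81. E2F7 had growing values of 6.27 and 6.41 in experiment 1 against 8.31 and 8.74 in experiment 2, with senescent values between 10.19 and 10.78 in both. SLC2A1, the glucose transporter GLUT1, fell from 8.79 and 8.78 to 5.67 and 5.61 in experiment 1 and from 6.97 and 7.16 to 6.20 and 6.30 in experiment 2, the latter call being lost without either senescent array. The differences of NFKBIZ, E2F7 and SLC2A1 were not followed singly through the alternatives, so their firmness is not known. Other differences rested on values under 5. For CDKN2B the growing values were 2.93 and 2.74 in experiment 1, and the difference of -4.09 was not called with values under 5 set to 5 (-1.93, adjusted p = 0.14). MMP12, macrophage elastase, showed growing values of 1.40 and 1.5 in experiment 2 against 3.58 and 3.48 in experiment 1, and its difference of 4.20 became 1.62 (adjusted p = 0.524) on that scale. The differences of CDKN2B and MMP12 were also not called without any 1 of the 8 vector arrays. IVL, the cornified envelope protein involucrin, and BEX1 kept a called difference there, of 1.53 and 1.82.

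**Figure D5:**
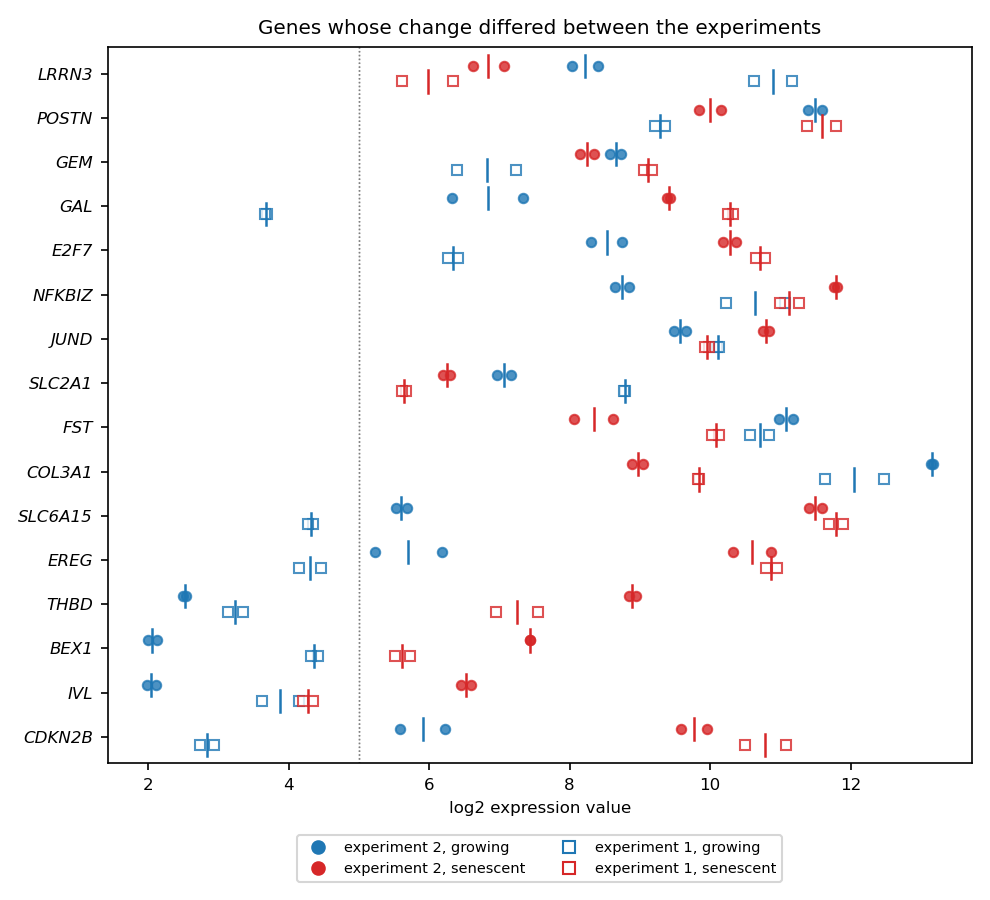
Log2 expression values (x axis) of 16 genes whose senescence change differed between the experiments, filled circles for experiment 2 and open squares for experiment 1, blue for growing and red for senescent vector arrays, with bars for group means and a dotted line at 5. POSTN moves in opposite directions, and E2F7, GAL and CDKN2B differ mainly in the growing values.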

How the data were processed

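Total RNA from 38 IMR90 samples in 19 groups of 2 was hybridised to Affymetrix U133 Plus 2.0 arrays. The deposited values are log2 expression. The submitters' processing notes name GCRMA. The version, and whether all arrays were processed together, are not given in the sources used here. Detection calls and control probe sets were not used here. Of 54613 probe sets, 41091 named 1 gene, 1801 several and 11721 none, with symbols updated to RefSeq (GRCh38.p14). Each gene took its brightest probe set over all arrays, and 8511 of 19775 genes exceeded 5 on at least 2 arrays of experiment 1. That filter uses no array of experiment 2, but it does use the experiment 1 arrays that enter the comparison within experiment 1 and the difference. limma 3.58.1 (R 4.3.3) was fitted to the 6 arrays of experiment 2 (residual df 3), to the 32 of experiment 1, and to all 38 for the difference between experiments, without a replicate block. Same-numbered growing and senescent vector arrays did not deviate together (r = -0.064), nor did senescent vector and shRB arrays (-0.136), whereas growing vector and senescent shRB arrays did (0.625). The number of arrays limits the precision.

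Genes named were the 15 largest rises and falls among called genes whose growing and senescent arrays did not overlap. To these came up to 4 called members of each list in each direction, and HRAS. All tested cell cycle inhibitors, pocket proteins, E2F members and G1 cyclins and kinases were also named. So were the 10 largest differences between experiments in each direction. Those shown are a selection. In the account of the differences, NFKBIZ, E2F7 and SLC2A1 were chosen after their values were seen. The members and lists were chosen with earlier results of these data known. Alternatives were quantile normalization, other filters, the mean of probe sets, a variance trend, a replicate block, other sets of arrays and each vector array left out. Averaging the senescent arrays, setting values under 5 to 5, and the alternatives for experiment 1 were added after seeing the data.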

Additional observations from a re-analysis of the deposited data

Results flagged for a closer look

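The senescence change differed between the experiments, by limma's test of the difference over all 8511 genes, for the following named genes, given as the log2 change in experiment 2 minus that in experiment 1. Among genes with the more positive change in experiment 2, SERPINB4, a squamous cell serpin, stood at 4.51, MMP12 at 4.20, BEX1 at 4.12 and IVL at 4.09. MRGPRX3 stood at 3.65, NDP at 3.58, LRRN3 at 3.53 and SERPINB3 at 3.39. CTSS, the lysosomal protease cathepsin S, stood at 3.07, LCE2B at 3.05, NFKBIZ at 2.55, THBD at 2.35, SLC2A1 at 2.33 and JUND at 1.38.

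Other genes had the more negative change in experiment 2, either a smaller rise or a larger fall there, or a fall set against a rise. CDKN2B stood at -4.09, the neuropeptide gene GAL at -4.03, POSTN at -3.80 and OXTR, the oxytocin receptor, at -3.76. PDGFD stood at -3.64, TOX at -3.62, TNFAIP6 at -3.37 and the mitotic kinesins KIF2C and KIF4A at -2.97 and -2.94. GEM stood at -2.70, E2F7 at -2.62, FST at -2.11, COL3A1 at -1.97, ETV1 at -1.89, EREG at -1.67 and SLC6A15 at -1.58. With values under 5 set to 5, the differences of SERPINB4 (0.94), LCE2B (0.97), NDP (1.89), CTSS (1.41), MRGPRX3 (1.54), OXTR (-2.26), PDGFD (-1.51), TOX (-1.54) and TNFAIP6 (-3.22) were not called, nor were those of CDKN2B and MMP12. SERPINB3 was under 5 on all 8 vector arrays and was not tested on that scale. Groups of 2 arrays allow no test for single outlying samples.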

How the results depend on the processing

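The count of 3339 genes fell to 1827 with the senescent arrays averaged and lay between 1822 and 3441 without 1 vector array. Other settings gave 2724 (all 38 arrays in 1 fit) to 4440 (no filter). With the replicate number as a block, 3990 genes were called. The numbers do not pair the samples by the labels, and CDK4 was the 1 named gene whose call the block changed. The experiment 1 count of 2166 lay between 1337 and 1490 without 1 vector array, and quantile normalization changed its split from 784 higher and 1382 lower to 1096 and 1136. The 128 differences became 295 with no filter, 283 with the mean of probe sets, 386 with the 8 vector arrays only, 145 with the replicate block, 47 with the senescent arrays averaged and 44 to 88 without 1 vector array. The cause of these shifts was not tested. Of 223 named genes, 53 lost their call in at least 1 alternative, 39 of them without senescent replicate 1. TIMP2 turned to 0.23 with the mean of probe sets. Of 34 list medians, 33 moved by more than the replicate spread in at least 1 alternative. With no filter the median was 0.57 for chemokines, 0.39 for interleukins (from 1.86) and -1.43 for homologous recombination. The median of NRF2 targets and metallothioneins, -0.06, turned to 0.06 with the mean of probe sets, 0.03 without growing replicate 1 and 0.09 without senescent replicate 2, and lay between -0.10 and 0.09 without 1 vector array. Values under 5 lie at the edge of the measurable range.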

Other observations

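Of 20 genes of the unfolded protein and amino acid stress response, 8 fell and 3 rose, or 4 and 1 without either senescent array or with both averaged. The shares were 40% lower and 15% higher, against 20.6% and 18.7% of all genes. ASNS, asparagine synthetase, fell from 9.54 and 9.26 to 7.32 and 7.09. PHGDH and PSAT1, enzymes of serine synthesis, fell from 6.23 and 5.98 to 4.16 and 3.81 and from 10.16 and 10.15 to 8.64 and 8.59. Of 13 NRF2 targets and metallothioneins, 3 fell, 2 rose and 8 were not called, near the shares of all genes (20.6% lower and 18.7% higher). SLC7A11, the cystine transporter, fell from 9.66 and 10.00 to 7.84 and 7.80, and HMOX1, heme oxygenase, from 6.61 and 6.10 to 4.69 and 4.87. The rises, MT1F by 0.79 and MT1G by 0.78, were not called without growing replicate 2 or either senescent array. Of 22 genes of glucose uptake and glycolysis 4 rose and 4 fell, near the shares of all genes (18.7% and 20.6%), or 2 and 2 without either senescent array or with both averaged. HK2, a hexokinase, rose from 8.52 and 9.14 to 10.94 and 10.78, while PDK1, a kinase that holds back pyruvate oxidation, fell from 9.79 and 10.19 to 7.93 and 8.21.

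Of 12 interferon-stimulated genes tested, 7 fell and 1 rose, or 5 and 0 without either senescent array or with both averaged, and 3 of 9 fell with values under 5 set to 5. GBP1, an interferon-induced GTPase, fell from 9.03 and 8.85 to 6.73 and 6.49. Ribosome biogenesis genes rose in 7 of 20 cases and fell in 1, with 3 rises without either senescent array. The shares were 35% higher and 5% lower, against 18.7% and 20.6% of all genes. POLR1B, a subunit of RNA polymerase I, rose from 6.90 and 7.19 to 8.39 and 8.35. Of 8 RGS genes, which shorten G protein signals, 4 rose and 1 fell, and the fall was not called without either senescent array. For this list the shares were 50% higher and 12.5% lower, against the same 18.7% and 20.6%. RGS5 rose from 4.88 and 4.69 to 6.85 and 6.75.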
